A study of Mus musculus with 6 samples.

Results

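The 8 genes described here encode small leucine-rich proteoglycans of the extracellular matrix (*Fmod*, *Lum*, *Prelp*, *Dcn*, *Bgn*, *Aspn*, and *Ogn*) and matrix Gla protein (*Mgp*). They were taken by name from the 56923 genes listed in the count table of a mouse mRNA-Seq experiment, and all 8 passed the filter on low counts that left 17212 genes for testing. The set was selected on results of the same comparison that is described below, in which *Fmod* and *Mgp* were already known to be higher in mutant mice, so its differences between genotypes are given as descriptions without p-values. *Fmod* passed the filter only through the mutant mice.

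The left ventricles (LVs) of 3 WT and 3 *Lztr1* R409C/+ mice were sequenced when the mice were 12 weeks old, 1 library for each, to ask how the mutation in this model of Noonan syndrome with cardiac hypertrophy affects gene expression. The mutant mice carried a heterozygous R409C missense allele of *Lztr1*, an adaptor that marks RAS proteins for degradation. The allele was knocked in and is therefore present in every cell, and the labels name it only as mutant. The labels call the tissue heart and give no litter, batch, or date. The p-values of other genes below measure the spread between these mice. Counts per gene do not distinguish the R409C allele from the WT allele, so they cannot check the genotype.

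Small leucine-rich proteoglycans are secreted proteins whose leucine-rich repeats bind collagen fibrils and set their diameter and spacing. Most carry chains of chondroitin, dermatan, or keratan sulfate, and several also hold growth factors of the TGF-β family in the matrix. In the heart they are made mainly by fibroblasts and other mesenchymal cells. MGP is not a proteoglycan. It is a small protein modified with the help of vitamin K that binds bone morphogenetic proteins and keeps vessels and cartilage from calcifying.

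Total counts ranged from 66130887 to 72641124 per mouse, and 3 counts corresponded to 0.0317 to 0.0541 CPM (counts scaled to a common library size, here with TMM factors), a floor for counting error only. A pair of libraries stood apart in the share of counts from mitochondrially encoded genes, which was 13.8% in WT replicate 3 and 45.4% in mutant replicate 1, against 29.7% to 37.3% in the other mice. Of 6 markers of atrial muscle, *Myl7* was at 0 to 0.262 CPM, *Sln* at 0 to 0.0552 CPM, and *Bmp10* at 0 to 0.0559 CPM, while *Nppa* was at 37.7 to 107 CPM and *Stard10* at 9.55 to 16.3 CPM. *Myl2*, the ventricular myosin light chain, was at 1300 to 3622 CPM. Of 6 ventricular markers, 3 were higher and 3 lower in mutant mice, from -0.39 (*Myh6*) to 0.51 (*Myl2*) on the log2 scale. For *Ryr2* (-0.33, adjusted p = 0.654 by edgeR) every mutant mouse was below every WT mouse, as for 7.23% of all genes. The sum was 22732 to 27901 CPM in WT and 15249, 20584, and 29225 CPM in mutant mice. *Myh6* was the largest part of the sum in every mouse, at 17348.5, 14162, and 14120.8 CPM in WT and 6329.78, 11876.4, and 16621.9 CPM in mutant mice. *Myh6*, *Actn2*, and *Ryr2* were lowest in mutant replicate 1, while *Tnnt2*, *Myl2*, and *Myl3* were not. The sum was lowest in that mouse, where *Dcn*, *Lum*, *Aspn*, and *Ogn* peaked. The part of heart muscle in those values was not tested. Because whole tissue was sequenced, fewer cells of a type and less RNA per cell cannot be told apart.

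Most of the genes lie in 3 clusters that arose by duplication. On chromosome 1 of GRCm39, *Prelp* (ENSMUSG00000041577.6, 133837335 to 133857971, minus strand) and *Fmod* (ENSMUSG00000041559.8, 133964992 to 133976015, plus strand) are neighbours in the same family. On chromosome 10, *Dcn* (ENSMUSG00000019929.17, 97315275 to 97358155) precedes *Lum* (ENSMUSG00000036446.6, 97400990 to 97408577), both on the plus strand. On chromosome 13, *Aspn* (ENSMUSG00000021388.15, 49697609 to 49721057) and *Ogn* (ENSMUSG00000021390.7, 49761349 to 49780412) are on the plus strand with *Omd* between them. *Bgn* (ENSMUSG00000031375.18) stands alone on chromosome X, 72527208 to 72539541, plus strand, and *Mgp* (ENSMUSG00000030218.3) on chromosome 6, 136849433 to 136852821, minus strand.

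The promoters of the chromosome 1 and chromosome 13 neighbours are shown because each pair differed in how far apart the genotypes lay. Of the 8 genes, 5 matched a promoter entry by symbol, and 4 of these are shown. They are 300 bases of RefSeq sequence on the older build GRCm38.p6, from 250 bases before the start of the RefSeq entry, printed along the strand of the gene. That start need not be the start of the gene as positioned above. Judged by the shift of *Fmod* between the builds, the *Prelp* window lies inside the gene. The windows are chr1:134037004-134037303 on the plus strand for *Fmod*, chr1:133921352-133921651 on the minus strand for *Prelp*, chr13:49544193-49544492 on the plus strand for *Aspn*, and chr13:49607765-49608064 on the plus strand for *Ogn*. Capitals mark CAGAC (the SMAD box), TATAAA (the TATA box), and GGAATG (a TEAD site), each on either strand.
Fmod: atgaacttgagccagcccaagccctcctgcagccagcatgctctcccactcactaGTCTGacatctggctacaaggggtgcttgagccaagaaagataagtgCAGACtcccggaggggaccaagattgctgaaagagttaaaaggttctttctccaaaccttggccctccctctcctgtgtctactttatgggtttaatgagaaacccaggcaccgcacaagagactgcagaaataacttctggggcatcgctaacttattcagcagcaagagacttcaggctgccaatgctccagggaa
Prelp: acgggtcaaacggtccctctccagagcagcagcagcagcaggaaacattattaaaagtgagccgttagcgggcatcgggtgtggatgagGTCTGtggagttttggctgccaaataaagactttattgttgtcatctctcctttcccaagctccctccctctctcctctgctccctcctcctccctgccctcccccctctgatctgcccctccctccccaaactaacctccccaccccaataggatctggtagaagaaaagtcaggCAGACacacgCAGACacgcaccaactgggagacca
Aspn: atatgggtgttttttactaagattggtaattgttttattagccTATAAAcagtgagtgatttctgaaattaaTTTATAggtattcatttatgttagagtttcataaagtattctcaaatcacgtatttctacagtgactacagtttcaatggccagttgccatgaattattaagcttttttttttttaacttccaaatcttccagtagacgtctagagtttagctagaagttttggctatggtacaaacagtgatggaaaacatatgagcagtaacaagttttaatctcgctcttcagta
Ogn: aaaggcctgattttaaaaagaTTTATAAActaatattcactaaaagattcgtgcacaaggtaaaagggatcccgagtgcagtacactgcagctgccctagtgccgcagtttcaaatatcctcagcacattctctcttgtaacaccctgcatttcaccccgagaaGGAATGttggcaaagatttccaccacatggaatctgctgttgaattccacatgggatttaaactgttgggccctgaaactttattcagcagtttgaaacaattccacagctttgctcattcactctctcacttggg
In *Fmod*, CAGAC was found 195 bases before the start on the opposite strand and 148 bases before it on the same strand, and TATAAA was not found on either strand. In *Prelp*, CAGAC was found 161 bases before the start on the opposite strand and after the start on the same strand. *Aspn* and *Ogn* each held TATAAA on both strands, which overlap in *Ogn*, and no CAGAC. Only *Ogn* among the 5 members with an entry, which include *Bgn*, held GGAATG. These letters are common, since 49.6% of 32851 promoter windows of the same length held CAGAC, 13.6% held TATAAA, and 14.7% held GGAATG. The AP-1 letters TGANTCA, found in 7.81% of windows, were in none of the 5. CCAAT, found in 37.4% of windows, was in *Fmod*, *Prelp*, and *Aspn*, and the GC box GGGCGG, found in 35.7%, was in *Bgn* alone. The base composition of the neighbours also differed, with a GC content of 51.0% for *Fmod*, 55.3% for *Prelp*, 31.0% for *Aspn*, and 42.3% for *Ogn*.

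In WT LVs these genes ranged from among the most abundant to the nearly silent. Set per kilobase of exon so that genes can be compared, *Mgp* was at 26.5 ± 1.28 CPM per kb (SD, n = 3), *Dcn*, which binds collagen and TGF-β, at 26.0 ± 2.14, *Bgn*, its closest relative, at 24.2 ± 7.73, and *Ogn* at 20.5 ± 1.83. The ranges of neighbours in this order overlapped among these 4 genes. A second tier held *Aspn*, which competes with decorin for collagen, at 8.04 ± 1.34 CPM per kb, *Lum* at 6.998 ± 0.502, and *Prelp*, an anchor between basement membrane and connective tissue, at 5.82 ± 1.85, again with overlap between neighbours. *Fmod* was at 0.0277 ± 0.0269 CPM per kb, below all 3 values of *Prelp*. The order depended on which transcripts set the length. With the canonical transcript of each gene, the leading genes were *Bgn* at 67.6, *Dcn* at 55.5, and *Mgp* at 51.6 CPM per kb, and 4 of the 8 genes kept their place.

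All 8 genes had a higher fitted mean in mutant than in WT mice, by 0.16 to 3.64 on the log2 scale. The median log2 fold change over the 8 was 0.57, against 0.012 over all genes tested. Summed over the 8 genes, the level was 678 to 835 CPM in WT and 924 to 1010 CPM in mutant mice. With edgeR's quasi-likelihood test, 0 of the 8 passed a false discovery rate of 0.05, where 0.0407% of all genes passed in either direction. At an unadjusted p under 0.05, 5 genes passed as higher in mutant mice (*Fmod*, *Mgp*, *Lum*, *Aspn*, and *Bgn*), where 5.77% of all genes did. The genotypes did not overlap for 3 genes (*Fmod*, *Mgp*, and *Lum*), where this held for 8.3% of all genes in the same direction. Other tests at a false discovery rate of 0.05 passed *Fmod* and *Mgp*. DESeq2's Wald test passed 0.961% of the genes to which it gave an adjusted value as higher in mutant mice, and edgeR's exact test passed 0.72% of genes as higher. Scaling by library size only passed *Fmod*, where 0.0871% of genes passed as higher. Since the genes were chosen on this comparison, these counts describe the choice.

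**Figure D1:**
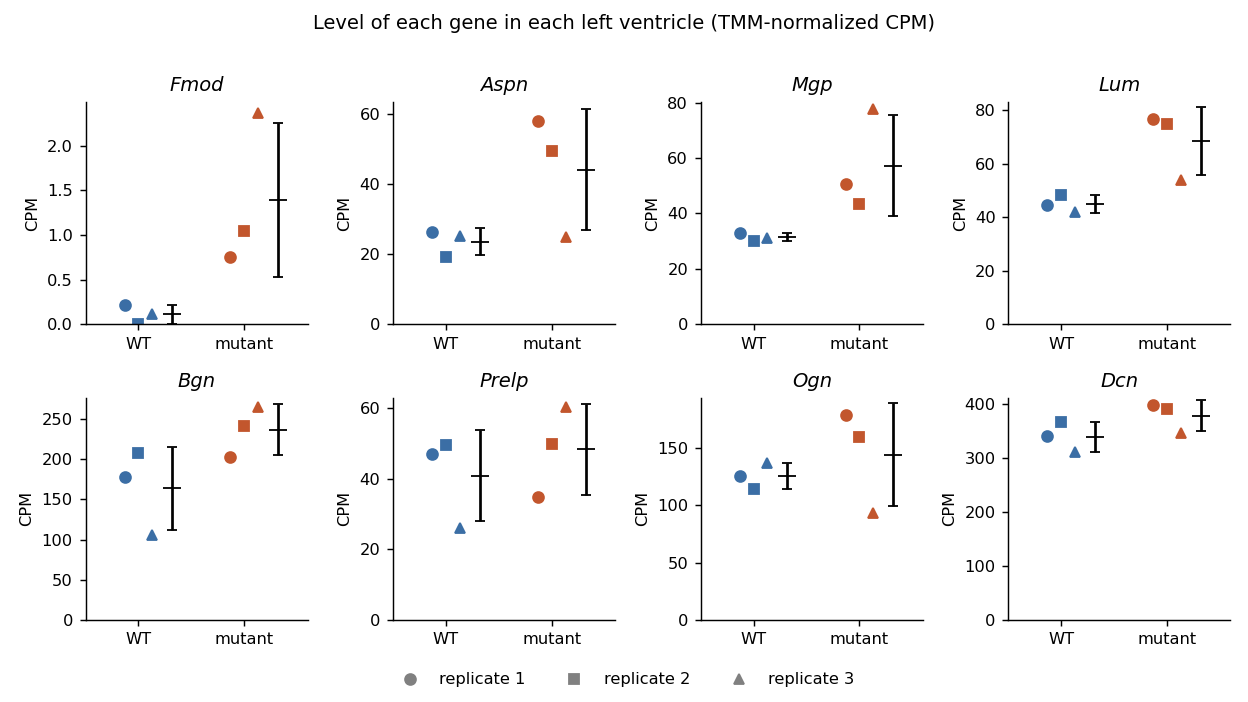
TMM-normalized CPM of each gene (vertical axes, starting at 0) in 3 WT mice (blue) and 3 mutant mice (orange), with symbols for the replicate and black bars for the mean ± SD. For *Fmod*, *Mgp*, and *Lum* every orange point lies above every blue one, and mutant replicate 3 is highest for *Fmod* and *Mgp* but lowest of the mutants for *Lum*, *Aspn*, *Ogn*, and *Dcn*.

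*Fmod* encodes fibromodulin, a keratan sulfate proteoglycan of tendon and other dense collagen that guides the early growth of fibrils. In replicate order, WT mice gave 14, 0, and 11 counts and mutant mice 42, 75, and 172. These counts were 0.212, 0, and 0.116 CPM in WT and 0.758, 1.05, and 2.37 CPM in mutant mice. All mutant mice were above all WT mice, and mutant replicate 3 was above the others by a wide margin. The means were 0.109 ± 0.106 and 1.39 ± 0.861 CPM (SD, n = 3 in each group), a ratio of 12.7, and the log2 fold change was 3.64 ± 0.80 (SE). A count of 0, as in WT replicate 2, allows up to 0.0466 CPM. The WT mean was higher than that of only 1.34% of all genes tested, so the largest ratio among the 8 genes belonged to the one with the lowest level. The log2 fold change was 3.02 without mutant replicate 3 and 4.41 without WT replicate 1, and 3.98 without the 2 libraries that stood apart.

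*Lum*, for lumican, and *Prelp* belong to the same class as *Fmod*. *Lum* was at 44.4, 48.3, and 42.0 CPM in WT and 76.7, 74.8, and 54.0 CPM in mutant mice. All mutant mice were above all WT mice, and replicates 1 and 2 stood well above replicate 3. Its log2 fold change was 0.61 ± 0.17 (SE), between 0.51 and 0.75 with each mouse left out. *Prelp* was at 47.2, 49.6, and 26.0 CPM in WT and 34.8, 49.8, and 60.5 CPM in mutant mice, so that the genotypes overlapped, with WT replicate 3 lowest. Its log2 fold change was 0.24 ± 0.25 (SE), and it was -0.0016 without WT replicate 3. On chromosome 1 the neighbours *Prelp* and *Fmod* thus had log2 fold changes of 0.24 and 3.64.

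Decorin, biglycan, and asporin form another class. *Dcn* was at 340, 366, and 310 CPM in WT and 398, 390, and 345 CPM in mutant mice, with means of 339 ± 28.0 and 378 ± 28.5 CPM (SD, n = 3 in each group). Mutant replicate 3 was below WT replicate 2, and the log2 fold change was 0.16 ± 0.16 (SE). It was 0.096 without WT replicate 3, 0.058 without that mouse and mutant replicate 1, and 0.0075 with library size only. *Bgn*, which also activates toll-like receptors when released from the matrix, was at 177, 207, and 106 CPM in WT and 202, 242, and 265 CPM in mutant mice. WT replicate 3 was far below the other WT mice, and the genotypes overlapped by the margin between WT replicate 2 and mutant replicate 1. The log2 fold change of *Bgn* was 0.53 ± 0.23 (SE), and 0.30 without WT replicate 3. *Aspn* was at 26.4, 19.1, and 25.1 CPM in WT and 58.0, 49.4, and 24.8 CPM in mutant mice, with 2 mutant mice high and replicate 3 among the WT values. Its log2 fold change of 0.90 ± 0.27 (SE) became 0.65 without mutant replicate 1 and 1.19 without mutant replicate 3.

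*Ogn*, which encodes osteoglycin (mimecan) of a further class, was at 126, 114, and 137 CPM in WT and 179, 160, and 93.4 CPM in mutant mice. It was the only one of the 8 genes with its lowest value in a mutant mouse, replicate 3. The log2 fold change was 0.20 ± 0.22 (SE). It was 0.0043 without mutant replicate 1, 0.43 without mutant replicate 3, and -0.021 with library size only, a scaling that moved the median of all genes to -0.14.

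*Mgp* was at 33.0, 30.0, and 31.3 CPM in WT and 50.6, 43.3, and 77.8 CPM in mutant mice. The WT mice lay close together, all mutant mice were above them, and mutant replicate 3 was highest. The means were 31.4 ± 1.52 and 57.2 ± 18.2 CPM (SD, n = 3 in each group), a ratio of 1.82. The log2 fold change was 0.86 ± 0.21 (SE), from 0.58 without mutant replicate 3 to 1.02 without mutant replicate 2, and 0.69 after a correction for gene length.

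**Figure D2:**
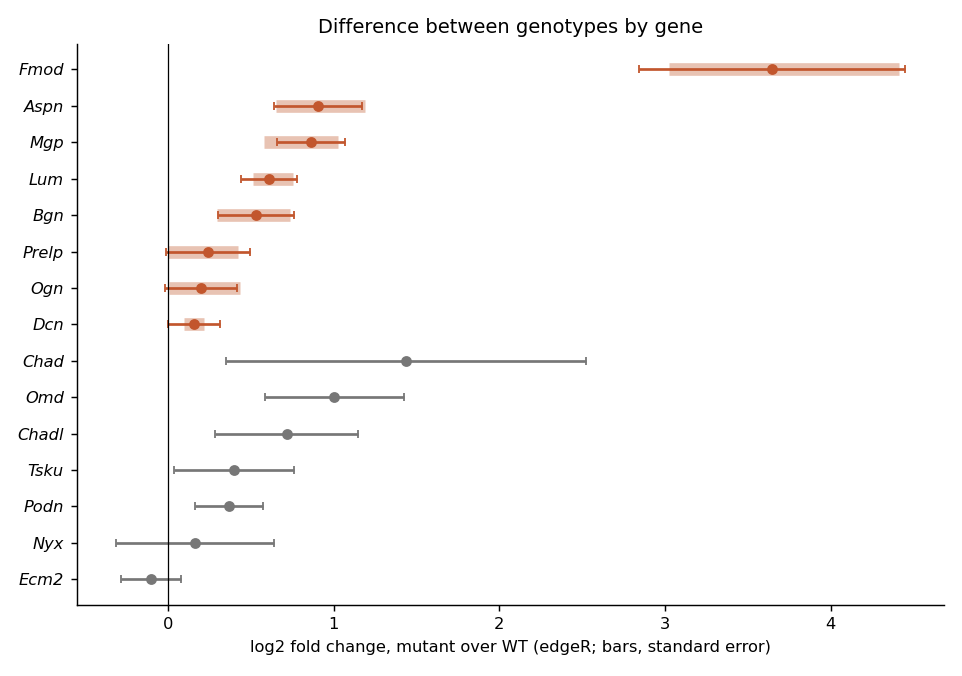
Log2 fold change of mutant over WT mice (horizontal axis) for the 8 genes (orange) and for the 7 other small leucine-rich proteoglycans that were tested (grey), with bars for the standard error. Pale bands give the range over the 6 fits that each left out 1 mouse, and *Fmod* alone lies beyond 3.

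The genes did not order the mice in the same way. Mutant replicate 1 was the highest mouse for *Dcn*, *Lum*, *Ogn*, and *Aspn*, and mutant replicate 3 for *Fmod*, *Mgp*, *Bgn*, and *Prelp*. Profiles over the 6 mice were standardized to mean 0 and SD 1, and the difference between 2 genes was expressed as the root mean square over mice, in SD. The closest pairs were *Dcn* and *Lum* at 0.416, *Lum* and *Aspn* at 0.432, *Bgn* and *Prelp* at 0.445, and *Fmod* and *Mgp* at 0.460. The pair farthest apart was *Ogn* and *Prelp* at 1.61. *Dcn* and *Lum* are neighbours on chromosome 10, whereas the neighbours *Prelp* and *Fmod* differed by 1.09. With 6 mice these values are a description, and all genes share the same libraries and scaling. Of the libraries that stood apart in mitochondrial share, WT replicate 3 was lowest for *Dcn*, *Lum*, *Bgn*, and *Prelp*. The part of these libraries in the pattern was not tested. Without both of them the log2 fold changes remained above 0 for all 8 genes, from 0.058 for *Dcn* to 3.98 for *Fmod*.

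**Figure D3:**
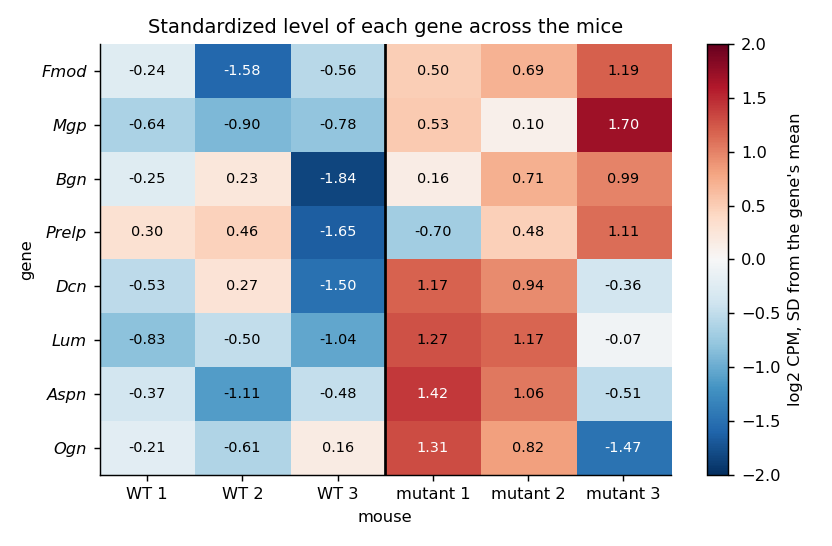
Level of each gene in each mouse as SD from the gene's mean over the 6 mice (colour and printed value, on log2 CPM), with a line between WT and mutant mice. *Fmod*, *Mgp*, *Bgn*, and *Prelp* peak in mutant replicate 3, and *Dcn*, *Lum*, *Aspn*, and *Ogn* in mutant replicate 1.

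Among all genes with a mean of at least 1 CPM, those whose profiles over the 6 mice were most like *Fmod* were *Ccdc166*, *Csrp1*, *Mast3*, *Nbl1*, and *A4galt*, with root mean square differences of 0.115 to 0.211 SD. For *Mgp* they were *Ftl1*, *Tcirg1*, *Gimap1*, *H19*, and *Cpne2*, at 0.140 to 0.175 SD. *H19*, an imprinted long noncoding RNA, was at 7.84, 8.45, and 10.1 CPM in WT and 25.1, 16.9, and 47.1 CPM in mutant mice. *Ftl1*, the ferritin light chain, was at 137 to 140 CPM in WT and 164 to 256 CPM in mutant mice.

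The neighbourhoods of the genes were read for signal that could come from overlapping genes. *Aspn* and *Ogn* lie inside *Cenpp*, a centromere protein gene on the opposite strand, which had 79 to 168 counts per mouse against 1228 to 12966 for the 2 members. *Prelp* overlaps an antisense noncoding gene with 0 counts in every mouse. Whether counting used the strand is not given in the sources used here. In the chromosome 13 cluster, *Omd*, for the keratan sulfate proteoglycan osteomodulin, was at 1.07, 0.699, and 0.443 CPM in WT and 1.80, 1.62, and 1.01 CPM in mutant mice, and *Ecm2* had a log2 fold change of -0.10 ± 0.18 (SE).

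**Figure D4:**
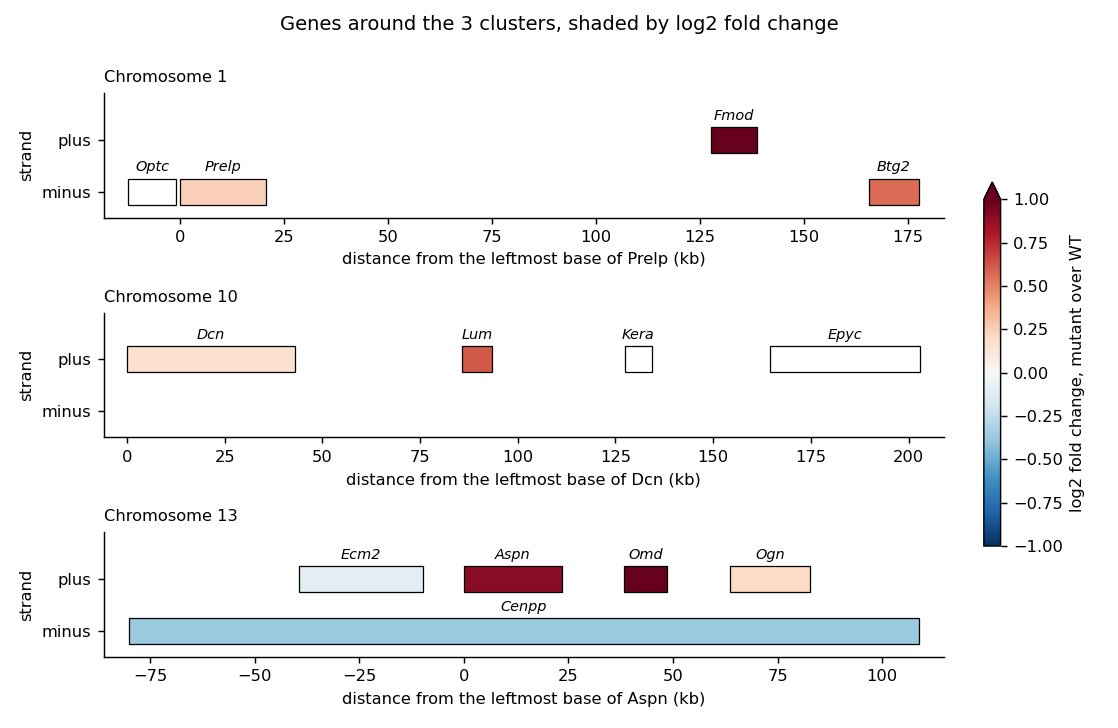
Genes of the 3 clusters drawn to scale by strand, with distance in kb from the first gene of the set and colour for the log2 fold change of mutant over WT mice (values above 1 share the darkest red, and white boxes are genes that had 0 counts). *Fmod* is darker than *Prelp* on chromosome 1, and *Aspn* and *Omd* are darker than *Ogn* on chromosome 13.

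The other small leucine-rich proteoglycans numbered 11. *Kera* and *Epyc* of the chromosome 10 cluster and *Optc* of the chromosome 1 cluster, known from cornea, cartilage, and eye, had 0 counts in all mice. *Podnl1* had 0 counts in WT and 0, 6, and 4 in mutant mice. Of the 7 tested, 6 had a higher fitted mean in mutant mice, with a median log2 fold change of 0.40, and 0 passed a false discovery rate of 0.05 with edgeR's quasi-likelihood test. The smallest unadjusted p belonged to *Omd*, with a log2 fold change of 1.004 ± 0.42 (SE, adjusted p = 0.551), followed by *Podn*, with 0.37 ± 0.21 (SE, adjusted p = 0.657). The others were *Chad* at 1.44, *Chadl* at 0.72, *Tsku* at 0.40, *Nyx* at 0.16, and *Ecm2*.

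The genes that build, bind, read, and cut these proteins were examined as 8 lists, the one above included, with 98 genes tested of 107. None was called at a false discovery rate of 0.05 by edgeR's quasi-likelihood test, where 12 had an unadjusted p under 0.05, all higher in mutant mice. This was 12.2% of the genes tested, beside the 5.77% of all genes. The lists were chosen with earlier results of these data known, so this share may describe the choice and was not tested. DESeq2's Wald test called *Comp* and *Igf1* as higher, as it did 0.961% of the genes to which it gave an adjusted value. edgeR's exact test called *Igf1*, where it called 0.72% of all genes as higher.

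For chain synthesis, 21 genes of chondroitin and dermatan sulfate assembly were tested, and 14 were higher and 7 lower in mutant mice, with a median log2 fold change of 0.097. *Dse*, the epimerase that turns chondroitin into dermatan sulfate, had the smallest unadjusted p of these and a log2 fold change of 0.46 ± 0.22 (SE, adjusted p = 0.599 by edgeR), followed by *B3galt6*, of the linker that joins the chain to the core protein, with -0.41 ± 0.29 (SE). The 6 tested genes of keratan sulfate synthesis had a median of 0.10, with *B3gnt2* and *Chst2* each at 0.30. *Chst13* and *Chst5* had 0 counts.

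Among 14 fibril partners, which include the collagens that these proteoglycans coat, 9 were higher and 5 lower, with a median log2 fold change of 0.20. *Col1a1* was at 106, 108, and 221 CPM in WT and 67.9, 142, and 157 CPM in mutant mice, a log2 fold change of -0.25 ± 0.36 (SE). WT replicate 3 was highest and mutant replicate 1 lowest, the reverse of their places for *Dcn* and *Lum*. *Comp*, a matrix protein of tendon and cartilage that joins collagen fibrils, was at 1.36, 0.886, and 1.84 CPM in WT and 3.12, 2.03, and 6.51 CPM in mutant mice. The genotypes did not overlap for *Comp*, where 8.3% of all genes were higher without overlap. Its log2 fold change was 1.51 ± 0.42 (SE, adjusted p = 0.307 by edgeR). *Col6a2* was next, at 0.46 ± 0.24 (SE, adjusted p = 0.616 by edgeR).

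Of 8 growth factors that the matrix binds, 6 were higher in mutant mice. *Igf1* was at 10.2, 12.4, and 12.4 CPM in WT and 22.2, 16.9, and 20.1 CPM in mutant mice, a log2 fold change of 0.76 ± 0.17 (SE, adjusted p = 0.215 by edgeR). The genotypes did not overlap for *Igf1*, where 8.3% of all genes were higher without overlap. *Tgfb3* had 0.46 ± 0.20 (SE, adjusted p = 0.554 by edgeR). Among 12 receptors, 4 were higher and 8 lower, and the smallest unadjusted p-values belonged to *Cd14*, a co-receptor of the toll-like receptors that read biglycan, with 0.77 ± 0.24 (SE, adjusted p = 0.385 by edgeR), and *P2rx7*, with 0.53 ± 0.23 (SE, adjusted p = 0.564 by edgeR).

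Of 15 proteases and their enhancers, 12 were higher in mutant mice, with a median log2 fold change of 0.36. The aggrecanase *Adamts4* was at 1.62, 1.93, and 1.59 CPM in WT and 1.79, 4.14, and 3.82 CPM in mutant mice (adjusted p = 0.470 by edgeR). The collagenase *Mmp13* had a log2 fold change of 0.92 ± 0.36 (SE, adjusted p = 0.523 by edgeR). For the maturation of MGP and the control of calcification, 15 genes were tested, and 5 were higher and 10 lower, with a median of -0.10. *Ggcx*, the carboxylase that makes the Gla residues of MGP, had a log2 fold change of -0.15 ± 0.20 (SE). *Enpp1*, which makes pyrophosphate, an inhibitor of mineral growth, had 0.43 ± 0.19 (SE, adjusted p = 0.565 by edgeR), and the phosphate transporter *Slc20a1* had -0.38 ± 0.21 (SE). *Bglap* and *Abcc6* had 0 counts.

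Markers of the cells that could supply these transcripts were read beside the members. All 12 fibroblast markers were tested, 9 were higher and 3 lower in mutant mice, with a median log2 fold change of 0.14, and their summed level was 724 to 1076 CPM in WT and 666 to 988 CPM in mutant mice. The most abundant were *Col3a1* and *Col1a1*. For 2 of the 12, *Dpt* and *Tcf21*, the genotypes did not overlap, where 8.3% of all genes were higher without overlap. *Dpt*, for dermatopontin, a partner of decorin, was at 40.5, 43.7, and 27.5 CPM in WT and 74.3, 50.6, and 50.7 CPM in mutant mice, a log2 fold change of 0.65 ± 0.21 (SE, adjusted p = 0.411 by edgeR). *Tcf21*, a transcription factor of cardiac fibroblasts, had 0.54 ± 0.24 (SE, adjusted p = 0.565 by edgeR). Relative to this sum, *Fmod* was 0.0292%, 0, and 0.0108% in WT and 0.114%, 0.108%, and 0.240% in mutant mice, without overlap. *Mgp* was 4.56%, 3.97%, and 2.91% of the sum in WT and 7.59%, 4.47%, and 7.87% in mutant mice, with overlap, and without overlap when the collagen genes and *Pcolce* were left out of the sum. *Lum* was 6.13%, 6.41%, and 3.90% in WT and 11.5%, 7.72%, and 5.47% in mutant mice, with overlap, also when the collagen genes and *Pcolce* were left out of the sum. *Dcn* was 28.8% to 48.5% of the sum in WT and 34.9% to 59.8% in mutant mice, a mean log2 difference of 0.12. That of *Dcn* turned to -0.0075 with the mean log2 CPM of the markers as denominator and to -0.057 without the collagen genes and *Pcolce*. For *Ogn* the 3 values were 0.11, -0.017, and -0.066, and for *Prelp* 0.22, 0.096, and 0.046. Relative to the sum, *Bgn* had 0.54, or 0.074 without WT replicate 3, and *Aspn* had 0.79, or 0.36 without mutant replicate 1. All 4 of these genes overlapped between genotypes.

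Lists for other cell types were read in the same way. In the list for tendon and valve interstitial cells, which holds *Comp*, 6 of 10 genes were tested, and all 6 had a higher fitted mean in mutant mice, with 0 past the threshold. The summed level was 14.1 to 17.1 CPM in WT and 17.5 to 32.5 CPM in mutant mice, and the defining tendon gene *Tnmd* had 0 counts in every mouse. The most abundant genes of the list were *Cilp* and *Scx*. In the list for epicardial mesothelium, 4 of the 6 tested were higher and 2 lower, with a median log2 fold change of 1.65. The summed level was 5.03 to 6.01 CPM in WT and 5.90 to 11.3 CPM in mutant mice, with overlap between the genotypes. The highest sum was in mutant replicate 3, as for *Fmod*. The most abundant genes of this list were *Wt1* and *Upk3b*. *Wt1*, which made up most of the sum in WT, was at 5.36, 4.02, and 3.98 CPM in WT and 3.59, 3.86, and 4.33 CPM in mutant mice, a log2 fold change of -0.18 ± 0.23 (SE), and *Krt19* had -0.041. *Upk3b* was at 0.166, 0.280, and 0.718 CPM in WT and 1.01, 1.86, and 2.40 CPM in mutant mice, a log2 fold change of 2.15 ± 0.54 (SE, adjusted p = 0.251 by edgeR). The other higher genes were *Lrrn4* at 2.37 ± 0.68 (SE, adjusted p = 0.326 by edgeR), *Upk1b* at 1.71, and *Msln* at 1.58. For *Upk3b* and *Lrrn4* the genotypes did not overlap, where 8.3% of all genes were higher without overlap. In the macrophage and leukocyte list, all 10 genes were higher in mutant mice, with a summed level of 219 to 252 CPM in WT and 371 to 484 CPM in mutant mice, highest in mutant replicate 1, and *C1qb* and *C1qc* rose by 1.15 and 1.19 on the log2 scale (adjusted p = 0.0241 for each by edgeR). Neither passed in any of the 6 fits that left out 1 mouse, with adjusted p-values by edgeR of 0.0567 to 0.192 and log2 fold changes of 1.08 to 1.24, nor without the 2 libraries that stood apart or with library size only. Its most abundant genes were *Lyz2* and *Csf1r*. The part of these cells in the values of the 8 genes was not tested.

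Of 7 smooth muscle markers 2 were higher and 5 lower, and the summed level was 161 to 190 CPM in WT and 138 to 208 CPM in mutant mice, most of it *Smtn* and *Acta2*. *Myh11*, the smooth muscle myosin heavy chain, was at 11.6 to 12.5 CPM in WT and 4.96 to 9.87 CPM in mutant mice, and *Tagln* at 4.27 to 5.57 and 2.91 to 3.71 CPM. Every mutant mouse was below every WT mouse for both, as for 7.23% of all genes, with adjusted p-values of 0.438 and 0.470 by edgeR. The cartilage and bone markers summed to 1.27 to 2.33 CPM in WT and 1.71 to 2.29 CPM in mutant mice, nearly all of it *Sox9*, with *Matn3*, *Bglap*, and *Ibsp* at 0 counts. Adipocyte markers summed to at most 0.249 CPM in any mouse, with *Lep* and *Retn* at 0. Pericyte markers summed to 895 to 1172 CPM in WT and 892 to 1095 CPM in mutant mice, and endothelial markers to 611 to 753 and 528 to 883 CPM. The 5 red blood cell genes were all higher in mutant mice, summing to 579 to 1479 CPM in WT and 1042 to 2625 CPM in mutant mice.

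**Figure D5:**
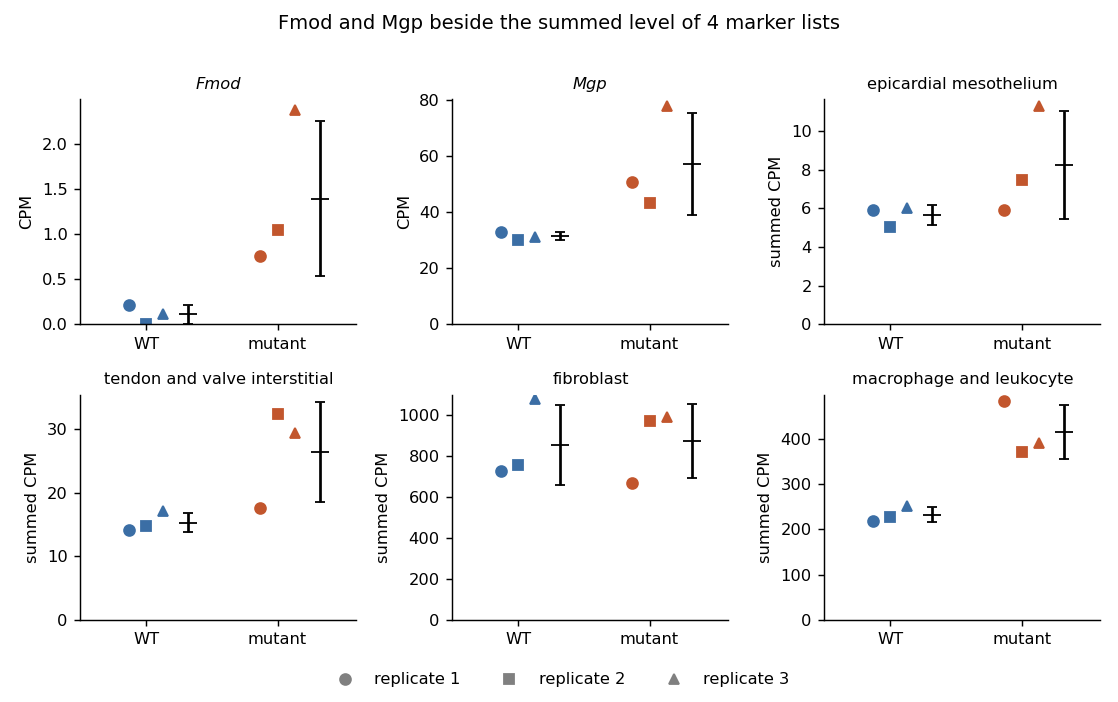
CPM of *Fmod* and *Mgp* and the summed CPM of 4 marker lists (vertical axes) in 3 WT mice (blue) and 3 mutant mice (orange), with symbols for the replicate and black bars for the mean ± SD. Mutant replicate 3 is highest for *Fmod*, *Mgp*, and the epicardial list, while the fibroblast list overlaps between genotypes.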

How the data were processed

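RNA from the PBS-perfused LVs of 3 WT and 3 *Lztr1* R409C/+ mice was sequenced. The authors trimmed reads with Trim-galore, aligned them to GRCm39 with HISAT2, removed rRNA, and counted genes through StringTie. They deposited raw counts, which are whole numbers for each gene. Annotation release, strand use, and the handling of overlapping genes are not given in the sources used here. A table of the authors' own comparison, with fold changes and p-values, served only to pair gene IDs with names. Positions and lengths came from GENCODE, which held 56236 of 56923 IDs.

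Counts were filtered (filterByExpr), scaled (TMM), and tested in R 4.3.3 with edgeR 4.0.16 (robust quasi-likelihood test, two-sided, Benjamini-Hochberg adjustment over 17212 genes, threshold 0.05). Adjusted p-values come from this fit, and total counts and the 3-count floor are given in the results. Members, gene lists, tests, and the rule for named genes were chosen with earlier results of these data known. The rule named all members, each other small leucine-rich proteoglycan with a count, from every partner list (the 8 lists other than markers) the 2 genes lowest in unadjusted p, the 5 genes most like *Fmod* and *Mgp*, and the 2 most abundant genes and those at 0 of each marker list, and not every one of these is given a value. *H19*, *Ftl1*, *Col1a1*, *Ggcx*, *C1qb*, *C1qc*, *Dpt*, *Tcf21*, *Myh11*, *Tagln*, *Krt19*, *Lrrn4*, *Upk1b*, *Msln*, and the named atrial and ventricular markers were singled out after their values were seen, as were the promoter motifs. The ratio of log2 values to the fibroblast markers used a pseudocount of 0.05 CPM.

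The alternatives were other scalings (DESeq2 1.42.0 size factors, library size, upper quartile), other tests (DESeq2, edgeR's exact test), other filters, removal of mitochondrial genes, a replicate block, other denominators, and the omission of each mouse. The steps were tested on simulated data.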

Additional observations from a re-analysis of the deposited data

How the results depend on the processing

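The number of genes past the threshold was 7 and depended on the test. It was 158 with DESeq2's Wald test, 137 with edgeR's exact test, 21 with library size only, 20 with no filter, 2 to 4 with each mouse left out, 1 without WT replicate 3 and mutant replicate 1, and 1486 at an unadjusted p under 0.05. Of the 8 members, 0 passed, against 2 with DESeq2 and with the exact test, 1 with library size only, and 5 at the unadjusted threshold, and 0 in each fit without 1 mouse. Of the partner genes, 0 passed, against 2 with DESeq2, 1 with the exact test, and 12 at the unadjusted threshold. The cause was not tested. With the replicate block 1 gene and 0 members passed, and *C1qb* and *C1qc* did not. Deviations of same-numbered mice from their group means correlated at -0.0013, 0.022, and -0.057. With 3 mice in each group these values cannot decide whether the numbers pair the mice, and the labels name no pairs. With the canonical length, added after the data were seen like the gene length correction and the omission of 2 mice together, 4 of the 8 members kept their place in the order, and 6 did so without each WT mouse in turn.

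Of the 8 log2 fold changes, those of *Fmod*, *Mgp*, *Lum*, *Bgn*, *Aspn*, and *Dcn* stayed above 0 in every alternative fit, *Fmod* not being tested when at least 10 counts were required in every mouse. *Prelp* (without WT replicate 3) and *Ogn* (with library size only) were the exceptions. Relative to the fibroblast markers, *Dcn* and *Ogn* fell below 0 with other denominators. Relative to the sum of these markers, *Dcn*, *Ogn*, and *Prelp* fell below 0 without WT replicate 3, and *Dcn* and *Ogn* also without mutant replicate 1. Among the members, depth limits *Fmod* most, whose WT counts were 14, 0, and 11.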
